A study of Mus musculus with 8 samples.

Results

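The enzymes described here are 8 members of the cholesterol synthesis pathway, Hmgcs1, Idi1, Fdps, Fdft1, Sqle, Lss, Cyp51 and Dhcr7. Their RNA was followed in immunoprecipitates (IPs) of the germ cell RNA-binding protein DAZL. They were taken by gene name from the array's non-control probes: 18 probes of 41174 carried the name of 1 of the 8 genes. Of these, 16 probes were kept among 28096, the condition being a signal well above background on each array of some group. All 8 genes had a kept probe, out of 19030 genes tested. The set was chosen by pathway with the enzymes' measured log2 differences of V5 IP and of GFP IP from mock IP known. The values in those comparisons are therefore given as a description, with no test.

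The study hybridised RNA of 8 samples to one-colour Agilent arrays of the mouse genome, with 2 arrays in each of 4 groups. The groups were a V5 IP with an antibody against the V5 tag, a GFP IP with an antibody against GFP, a mock IP with normal mouse IgG, and total input RNA with no antibody. All 4 groups came from primordial germ cells, the embryonic precursors of eggs and sperm, made in culture from V6.5 embryonic stem cells of the C57BL/6 129SV mixed strain. These cells carried Dazl-GFP-V5, and the cells behind the mock IP and the input carried the tag as well. Feeder cells were removed on plastic before 12 days of differentiation, lysates were kept native with no UV crosslinking, and RNA was extracted with TRIZOL. An IP with the tag antibodies from cells that lack the tag is not analysed here. The labels do not say whether the arrays of 1 group came from separate cultures, and p-values therefore reflect only how far these arrays spread, in part perhaps for technical reasons.

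Cholesterol is built from acetyl-CoA through the mevalonate pathway, which makes isoprene units that are joined into farnesyl diphosphate and then squalene. Squalene is closed into lanosterol, the first sterol, which a further series of enzymes trims and reduces to cholesterol. Most of these genes are switched on together by the transcription factor SREBP2 when membrane sterol is low, and farnesyl diphosphate also feeds protein prenylation, dolichol and ubiquinone. DAZL is known to bind messenger RNAs in germ cells and to affect their translation and stability.

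Promoter sequence is shown for Hmgcs1, Idi1 and Cyp51, whose RNA rose in both IPs against input in the results that follow. SREBP acts on sterol regulatory elements together with the factor NF-Y, which binds CCAAT boxes. The RefSeq promoter table of GRCm38.p6 held entries for 5 of the 8 genes, with 7 transcription starts in all. Each run is the 250 bases before the start on the gene's own strand. Capitals mark CCAAT or its reverse complement ATTGG, and in Hmgcs1 also CACCCCAC, letters from the core of the sterol regulatory element. Hmgcs1 is at chr13:119690101-119690350 on the plus strand, Idi1 at chr13:8885356-8885605 on the plus strand and Cyp51 at chr5:4104698-4104947 on the minus strand.
Hmgcs1: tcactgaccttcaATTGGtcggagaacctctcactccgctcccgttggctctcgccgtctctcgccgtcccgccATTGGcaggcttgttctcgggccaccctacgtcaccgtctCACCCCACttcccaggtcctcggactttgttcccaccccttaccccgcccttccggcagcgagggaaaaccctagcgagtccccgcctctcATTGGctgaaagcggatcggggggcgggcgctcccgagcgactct
Idi1: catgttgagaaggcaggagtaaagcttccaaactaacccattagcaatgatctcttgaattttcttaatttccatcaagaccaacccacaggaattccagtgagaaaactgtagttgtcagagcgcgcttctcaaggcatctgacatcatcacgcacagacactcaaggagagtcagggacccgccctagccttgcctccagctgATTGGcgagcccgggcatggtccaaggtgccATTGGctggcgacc
Cyp51: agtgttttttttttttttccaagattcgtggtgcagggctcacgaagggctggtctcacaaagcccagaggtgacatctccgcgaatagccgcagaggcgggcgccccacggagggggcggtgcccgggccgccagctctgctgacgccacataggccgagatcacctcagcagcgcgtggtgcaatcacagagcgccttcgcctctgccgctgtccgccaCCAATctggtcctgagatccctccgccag

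The Hmgcs1 window held 3 CCAAT matches and 1 CACCCCAC match, the Idi1 window held 2 CCAAT matches, and the Cyp51 window held 1. The Lss window held 1 CCAAT match, and of the 3 Dhcr7 windows 1 held 2 such matches and the others held 0. Over all 32851 windows of the same length in the table, 33.8% held CCAAT on either strand and 2.58% held CACCCCAC or its reverse complement GTGGGGTG. No match of one motif overlapped a match of the other in these windows. Fdps, Fdft1 and Sqle had no entry. The matches describe these letters only.

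Signals are processed intensities on a log2 scale, set against the 75th percentile of their own array, so a fold is a share relative to other RNAs on the array, not an amount of RNA recovered. The 75th percentile lay at intensities of 649 and 1130 on the V5 IP arrays and 641 and 1080 on the GFP IP arrays, against 352 and 767 on the mock IP arrays and 973 and 1090 on the input arrays. Between 61.2% and 70.5% of probes were well above background on an array, and replicate arrays correlated at r of 0.977 to 0.993 across genes. The median gene had a log2 difference of -0.44 against mock IP with either antibody, so a gene at 0 in those comparisons lies above most genes. That median moved to -0.29 (V5) and -0.26 (GFP) when arrays were centred on the median of the tested genes. Replicate 1 of every group was on slide 1 and replicate 2 on slide 2, so each slide holds all 4 groups.

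Cyp51, lanosterol demethylase, had the highest signal ratio among the 8 enzymes in each IP. Its brightest probe, A_52_P164161, read 3.20 and 2.79 in the V5 IP and 3.24 and 2.98 in the GFP IP. The same probe read -0.63 and -0.49 in mock IP and -0.02 and -0.16 in input. Every IP array lay above every mock IP and input array, and both mock IP arrays lay below both input arrays. The log2 difference was 3.56 ± 0.25 (SE, n = 2 arrays each) in V5 IP against mock IP, an 11.8-fold signal that ranked 13 of 19030 genes. With the GFP antibody it was 3.67 ± 0.25, a 12.7-fold signal that ranked 9. These ranks place Cyp51 near the top of the arrays in both antibodies' IPs, and no test is attached to them.

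Against input, Cyp51 rose 8.49-fold in V5 IP (log2 3.08 ± 0.25, limma adjusted p = 0.00204) and 9.16-fold in GFP IP (log2 3.20 ± 0.25, limma adjusted p = 0.00178). The input arrays are separate from mock IP, but the IP arrays are those whose values were known when the set was proposed, which holds for every IP against input comparison here. Within slide 1 the log2 difference against input was 3.22 in the V5 IP and 3.26 in the GFP IP, and within slide 2 it was 2.95 and 3.13. In mock IP against input Cyp51 differed by -0.47 (limma adjusted p = 0.221). The gene kept its call against input under all 17 alternative settings run, in both IPs, and with the mean of its probes the log2 difference was 1.497 in the V5 IP and 1.673 in the GFP IP.

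Hmgcs1, HMG-CoA synthase, acts early in the mevalonate pathway. Its brightest probe, A_51_P146941, read 6.08 and 5.89 in the V5 IP and 6.06 and 6.09 in the GFP IP, against 2.86 and 3.60 in mock IP and 3.99 and 4.07 in input. The IP arrays did not overlap either control, and mock IP lay below input. Against mock IP the signal was 6.76-fold higher in V5 IP (log2 2.76 ± 0.29) and 7.19-fold higher in GFP IP (log2 2.85 ± 0.29). Against input Hmgcs1 rose 3.87-fold in V5 IP (limma adjusted p = 0.00408) and 4.12-fold in GFP IP (limma adjusted p = 0.00302), and it kept both calls under all 17 alternatives. In mock IP against input it differed by -0.80 on the log2 scale (limma adjusted p = 0.101), which reached an adjusted p of 0.0446 with slide as a block.

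Idi1, isopentenyl-diphosphate isomerase, balances the isoprene building blocks. It read 3.43 and 2.86 in the V5 IP and 3.31 and 3.05 in the GFP IP, against 1.09 and 1.66 in mock IP and 1.78 and 1.87 in input. Again all IP arrays were above all control arrays. The signal was 3.41-fold higher in the V5 IP and 3.50-fold higher in the GFP IP than in mock IP. Against input it rose 2.50-fold in V5 IP (limma adjusted p = 0.0177) and 2.56-fold in GFP IP (limma adjusted p = 0.0135). Each Idi1 call was lost under 5 of 17 alternatives, namely without replicate 1 of the IP itself, without either input array, with normexp background correction and with the mean of its probes. The highest limma adjusted p over the alternatives was 0.199 in the V5 IP and 0.194 in the GFP IP.

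Fdps, farnesyl diphosphate synthase, stands at the branch point to prenylation and was lower in the IPs. Its brightest probe, A_51_P379798, read 1.98 and 1.61 in the V5 IP and 1.73 and 1.46 in the GFP IP, against 2.97 and 2.38 in mock IP and 3.14 and 2.96 in input. The IP arrays lay below all control arrays, while mock IP and input overlapped. The log2 difference was -0.88 ± 0.29 in the V5 IP and -1.08 ± 0.29 in the GFP IP against mock IP, which is -0.44 and -0.64 relative to the median gene. Against input Fdps fell 2.38-fold in V5 IP (limma adjusted p = 0.018) and 2.73-fold in GFP IP (limma adjusted p = 0.00919).

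Fdft1, squalene synthase, takes farnesyl diphosphate into the sterol branch. It read 1.35 and 1.27 in the V5 IP and 1.31 and 1.08 in the GFP IP, against 2.40 and 1.99 in mock IP and 2.70 and 2.60 in input. Its order was like that of Fdps, with the IP arrays lowest. The log2 difference against mock IP was -0.89 ± 0.24 in the V5 IP and -0.997 ± 0.24 in the GFP IP, or -0.44 and -0.56 relative to the median gene. Against input it fell 2.53-fold in V5 IP (limma adjusted p = 0.00788) and 2.73-fold in GFP IP (limma adjusted p = 0.00511). Without input replicate 1 all 4 calls of Fdps and Fdft1 against input were lost, and without input replicate 2 or with normexp all but that of Fdft1 in the GFP IP. The Fdps call in the V5 IP was also lost without either V5 IP array, and the highest limma adjusted p over all alternatives for Fdps and Fdft1 was 0.126 and 0.0765 in the V5 IP and 0.0761 and 0.0538 in the GFP IP.

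Sqle, squalene epoxidase, adds the oxygen that allows ring closure, and its single probe was nearly level across the 8 arrays. It read 3.16 and 3.11 in the V5 IP and 3.12 and 3.09 in the GFP IP, against 3.17 and 3.25 in mock IP and 3.11 and 3.27 in input. The log2 difference against mock IP was -0.07 ± 0.21 in the V5 IP and -0.10 ± 0.21 in the GFP IP, and its sign turned with centring on the median of tested genes and in the authors' deposited table. Relative to the median gene those differences were 0.37 and 0.34. Against input the difference was -0.05 in V5 IP, with a 95% interval of -0.553 to 0.446, and -0.08 in GFP IP, with an interval of -0.582 to 0.417, and neither passed (limma adjusted p = 0.878 and 0.803).

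Lss, lanosterol synthase, closes squalene epoxide into lanosterol, and its probes moved in opposite directions. The brightest, A_52_P118161, read 0.27 and 0.56 in the V5 IP and 0.47 and 0.84 in the GFP IP, against -1.23 and -0.16 in mock IP and 0.50 and 0.43 in input. On that probe the IP arrays lay above mock IP and overlapped input, with log2 differences of 1.11 ± 0.37 in the V5 IP and 1.35 ± 0.37 in the GFP IP against mock IP. The other Lss probes, A_51_P296487 and A_52_P168028, differed from mock IP by -0.92 and -0.90 in V5 IP, and by -1.01 and -0.99 in GFP IP. No single direction can be given for Lss.

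Dhcr7 reduces the last double bond to give cholesterol. Its brightest probe, A_51_P290986, read 5.57 and 4.50 in the V5 IP and 5.73 and 4.89 in the GFP IP, against 4.13 and 3.13 in mock IP and 3.60 and 3.59 in input. Replicate 1 was about 1 log2 unit above replicate 2 in the V5 IP and mock IP pairs, and the IP arrays lay above all control arrays. The log2 difference against mock IP was 1.40 ± 0.48 in the V5 IP and 1.68 ± 0.48 in the GFP IP, and within slides it was 1.44 and 1.36 in the V5 IP and 1.60 and 1.76 in the GFP IP. Against input the GFP IP rose 3.29-fold (limma adjusted p = 0.03), and the V5 IP difference of 1.44 on the log2 scale did not pass (limma adjusted p = 0.0601). With slide as a block both passed, at adjusted p of 0.00512 in the V5 IP and 0.00203 in the GFP IP. The GFP IP call was lost under 6 of 17 alternatives, among them without GFP IP replicate 1 and without either input array. The V5 IP difference passed under 7 of 17, among them without V5 IP replicate 2 and without either GFP IP array.

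**Figure D1:**
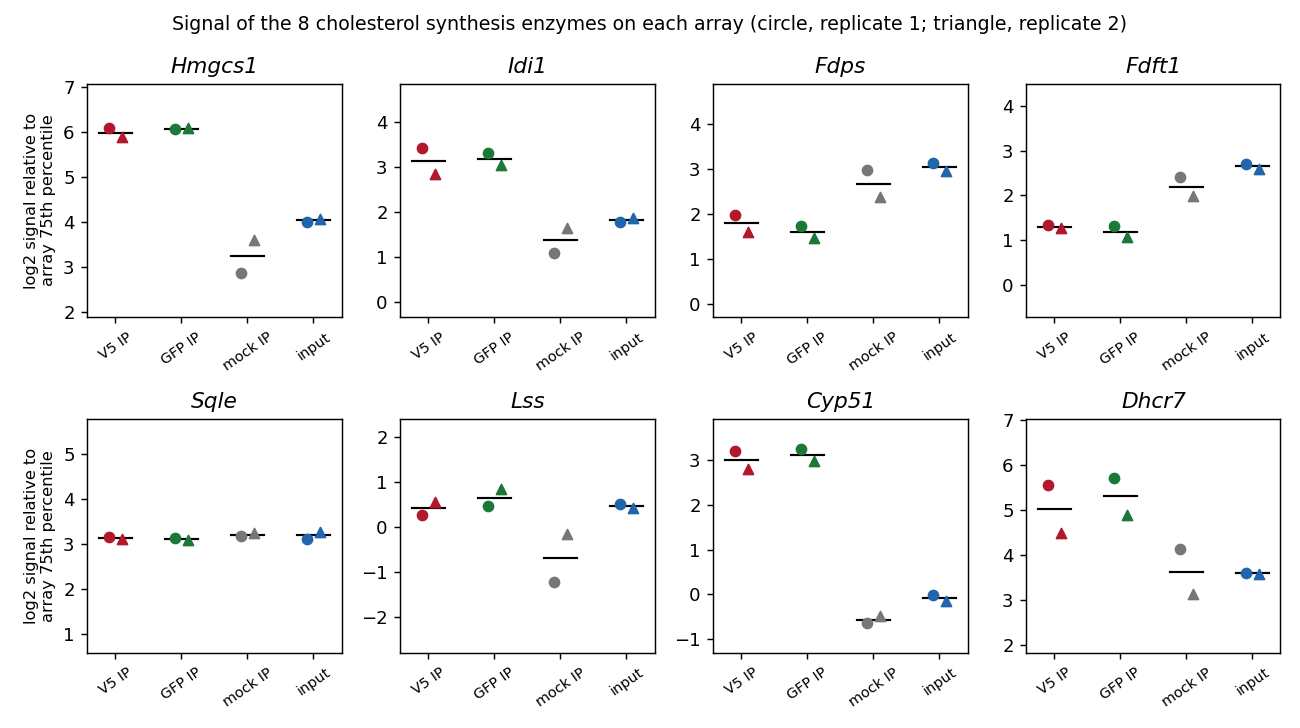
Log2 signal relative to each array's 75th percentile (vertical axis, all panels spanning the same number of log2 units) of the brightest probe of the 8 enzymes on each array of V5 IP, GFP IP, mock IP and input. Circles are replicate 1, triangles replicate 2 and bars the group means; the Cyp51 IP arrays sit between 2.79 and 3.24 and its control arrays below 0, while the Sqle arrays lie between 3.09 and 3.27.

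Several genes had more than 1 probe, and the size of the difference depended on the probe. For Cyp51, the dimmer probes A_51_P485791 and A_52_P636752 had log2 differences of 1.80 and 1.79 in the V5 IP and 1.95 and 2.05 in the GFP IP against mock IP, below the 3.56 and 3.67 of the brightest. Against input those Cyp51 probes had 0.62 and 0.79 in the V5 IP and 0.77 and 1.05 in the GFP IP, and neither passed when p-values were adjusted over all kept probes (limma adjusted p of 0.245 and 0.151 in V5 IP, 0.147 and 0.0639 in GFP IP). All 3 Cyp51 probes thus lay above mock IP, and only the brightest was called above input.

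The other Hmgcs1 probe, A_52_P388072, had log2 differences of 2.65 in the V5 IP and 2.90 in the GFP IP against mock IP, close to the brightest. Against input it had 0.998 in V5 IP (limma adjusted p over probes = 0.0501) and 1.25 in GFP IP (limma adjusted p over probes = 0.0214), and this Hmgcs1 probe was also lower in mock IP than in input, with a log2 difference of -1.65 (limma adjusted p over probes = 0.0301). The other Idi1 probe, A_52_P441634, had 1.32 in the V5 IP and 1.26 in the GFP IP against mock IP, but -0.16 and -0.22 against input (limma adjusted p over probes = 0.765 and 0.659). On that Idi1 probe the log2 difference of mock IP from input was -1.47 (limma adjusted p over probes = 0.0416). For Hmgcs1 and Idi1 the distance from mock IP was thus larger than that from input on both probes.

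Fdps probe A_52_P593965 had -0.95 in the V5 IP and -0.89 in the GFP IP against mock IP, the same direction as the brightest. The other Dhcr7 probe, A_52_P535946, had 1.39 in the V5 IP and 1.67 in the GFP IP against mock IP, again close to the brightest. Against input the dimmer Lss probes fell, with log2 differences of -0.87 and -0.77 in V5 IP (limma adjusted p over probes = 0.0287 and 0.0437) and of -0.96 and -0.86 in GFP IP (limma adjusted p over probes = 0.0183 and 0.0271). One further probe each of Fdft1 and Hmgcs1 was well above background on 0 of 8 arrays. Over the whole array, 6541 genes had several kept probes, and their signs against mock IP differed in 1762 genes for V5 IP and in 1867 for GFP IP.

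**Figure D2:**
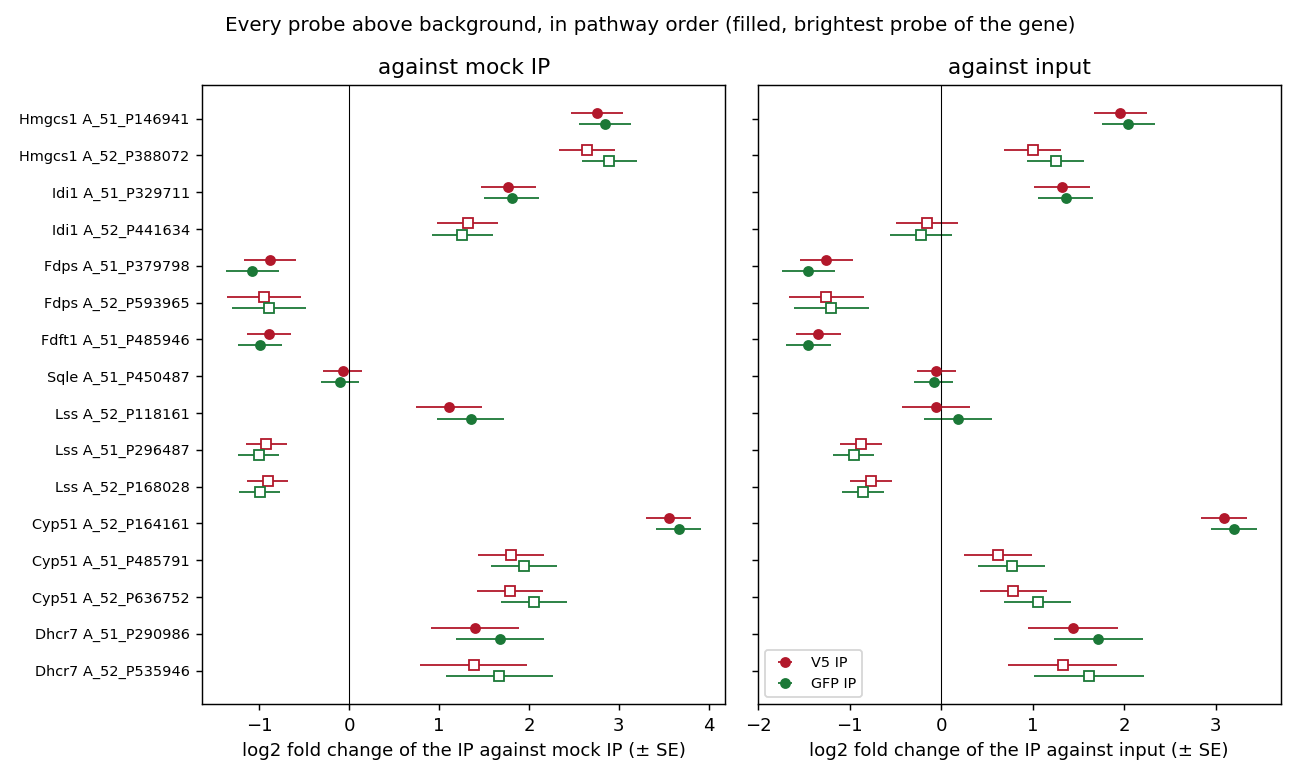
Log2 fold change (horizontal axis, ± SE) of V5 IP and GFP IP against mock IP (left) and against input (right) for the 16 kept probes, in pathway order from the top; filled circles are the brightest probe of a gene and open squares the others. The 3 Cyp51 probes lie right of 0 against mock IP, whereas 1 Lss probe lies right and the others left of it.

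Counted over the 8 enzymes, 5 had both IP arrays above both mock IP arrays in the V5 IP and 5 in the GFP IP, namely Hmgcs1, Idi1, Lss, Cyp51 and Dhcr7 with either antibody. The other 3, Fdps, Fdft1 and Sqle, had both IP arrays below. Lss counts as above by its brightest probe only. On its dimmer probes both arrays of each IP lay below both mock IP arrays. Among all genes 22.3% lay above and 47.2% below in V5 IP, and 23.8% above and 48.2% below in GFP IP. The median log2 difference of the 8 was 1.26 in the V5 IP and 1.52 in the GFP IP, beside -0.44 for all genes in each. These counts describe the contrast known when the set was proposed. With Lss read from its second brightest probe, a choice made after seeing the data, the medians became 0.66 and 0.79.

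Against input, 3 of the 8 enzymes rose in V5 IP (Hmgcs1, Idi1 and Cyp51) and 2 fell (Fdps and Fdft1), where limma called 14.2% of all genes higher and 13.7% lower. In GFP IP 4 rose, with Dhcr7 added, and the same 2 fell, where 16% of all genes were called higher and 16.9% lower. Sqle passed in neither, and Lss passed in neither on its brightest probe, although its dimmer probes fell in both IPs. By the arrays' order, Hmgcs1, Idi1, Cyp51 and Dhcr7 lay above both input arrays in each IP, and Fdps and Fdft1 below. Among all genes 30.7% lay above and 39.6% below in V5 IP, and 31.7% above and 41.2% below for GFP. The median of the 8 was 0.63 in the V5 IP and 0.77 in the GFP IP, beside -0.11 for all genes in each. In pathway order Hmgcs1 and Idi1 rose, the adjacent Fdps and Fdft1 fell, Sqle and Lss were not called, Cyp51 rose, and Dhcr7 passed in the GFP IP, as the map of enzymes in pathway order shows.

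In mock IP against input 0 of the 8 passed in limma, with 6.64% of all genes called higher and 4.08% lower. Hmgcs1, Lss, Cyp51, Idi1 and Fdft1 had both mock IP arrays below both input arrays, as did 26.3% of all genes, and 0 lay above, where 40.8% of all genes did. The median of the 8 was -0.45, beside 0.20 for all genes. With slide as a block 2 of the 8, Hmgcs1 and Lss, fell in mock IP. These Lss results are those of its brightest probe. Its dimmer probes differed from input by 0.05 and 0.14 in mock IP on the log2 scale.

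In V5 IP against GFP IP all 8 enzymes had overlapping arrays, where 9.96% of all genes lay above and 6.68% below without overlap. The enzymes had log2 differences between -0.28 for Dhcr7 and 0.20 for Fdps. Limma called 0 of the 19030 genes (0%), with 190 at an unadjusted p under 0.05, and 1 gene with slide as a block. The 95% interval of the difference was -0.69 to 0.469 for Cyp51 and -0.761 to 0.581 for Hmgcs1. It was widest for Dhcr7, at -1.4 to 0.839, although within slides Dhcr7 differed by -0.16 and -0.40. These intervals come from the fit without slide. With 2 arrays each, that fit could not tell differences within these bounds from 0.

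**Figure D3:**
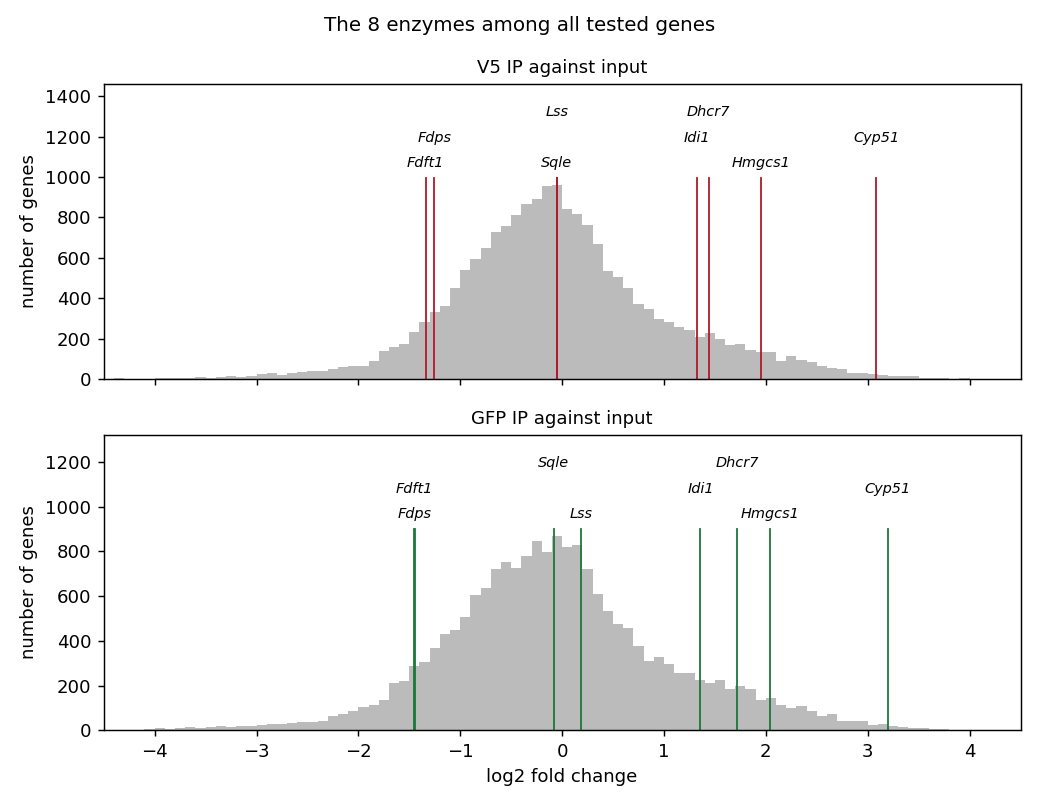
Number of genes (vertical axis) by log2 fold change (horizontal axis, bins of 0.1) of V5 IP against input (top) and GFP IP against input (bottom) over all 19030 genes, with the 8 enzymes as vertical lines. Cyp51 lies in the right tail at 3.08 and 3.20, Sqle near the centre, and Fdps and Fdft1 left of it.

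A list of 11 further enzymes of the pathway was measured in the same fit, each by its brightest kept probe. Against input 2 rose in each IP, Lbr and Hsd17b7. In V5 IP 2 fell, Tm7sf2 and Nsdhl, and in GFP IP Ebp fell as well. Among all genes 14.2% were called higher and 13.7% lower for V5, and 16% higher and 16.9% lower for GFP. The median log2 difference of the 11 was -0.61 in the V5 IP and -0.66 in the GFP IP, below the -0.11 of all genes. That of the 8 lay above it, but the 8 were chosen with values of these same IP arrays known. The gap between these medians is therefore not a test result. Against mock IP 2 of the 11 were higher and 5 lower in each IP. Limma there called 14.6% of all genes higher and 21.4% lower for V5, and 16.3% higher and 26.5% lower for GFP. The 5 lower ones were Mvk, Pmvk, Mvd, Tm7sf2 and Ebp, of which the first 3 act in a row between mevalonate and the isoprene unit. Nsdhl also fell in mock IP against input (log2 -1.19 ± 0.22, limma adjusted p = 0.0278). Ebp had no value on 1 of the 8 arrays, input replicate 2, an outlier spot that the fit left out. Its difference from input, and its call in the GFP IP, therefore rest on 1 input array.

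Lbr and Tm7sf2 encode enzymes with the same sterol reductase activity, which acts on the product of Cyp51, and Lbr is also the lamin B receptor of the nuclear envelope. Lbr read 7.25 and 6.33 in the V5 IP and 7.19 and 6.50 in the GFP IP, against 4.47 and 3.99 in mock IP and 3.78 and 3.63 in input. It rose 8.48-fold in the V5 IP and 8.80-fold in the GFP IP against input (limma adjusted p = 0.00254 and 0.00217), and 5.90-fold and 6.13-fold against mock IP (limma adjusted p = 0.00524 and 0.00426). Tm7sf2 moved the other way, at -0.14 and -0.35 in the V5 IP and -0.57 and -0.50 in the GFP IP, against 1.48 and 0.75 in mock IP and 0.80 and 0.83 in input. It fell 2.08-fold in the V5 IP and 2.54-fold in the GFP IP against input (limma adjusted p = 0.0312 and 0.0116). The Tm7sf2 calls were lost without either input array, the V5 IP call also without either V5 IP array and the GFP IP call without GFP IP replicate 1, with limma adjusted p up to 0.154 in the V5 IP and 0.0775 in the GFP IP. Lbr kept its calls under all alternatives.

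Hsd17b7, a ketosteroid reductase of the demethylation step, had the largest log2 difference from input among the 11. It read 3.01 and 2.33 in the V5 IP and 2.89 and 2.43 in the GFP IP, against -0.31 and -0.06 in mock IP and -0.98 and -1.04 in input. It rose 12.8-fold in the V5 IP and 12.7-fold in the GFP IP against input (limma adjusted p = 0.00204 and 0.00178), and 7.26-fold and 7.19-fold against mock IP (limma adjusted p = 0.00212 and 0.00191). Among the named genes that were lower against mock IP, Mvd, which makes the isoprene unit, differed by -1.36 in the V5 IP and -1.49 in the GFP IP (limma adjusted p = 0.0185 and 0.0108), and Pmvk, phosphomevalonate kinase, by -1.15 and -1.20 (limma adjusted p = 0.0245 and 0.0163). Over the alternatives, among them leaving out V5 IP replicate 1, mock IP replicate 1 or GFP IP replicate 1, these limma adjusted p reached 0.0918 and 0.0661 for Mvd and 0.115 and 0.0896 for Pmvk. Neither passed against input, where Mvd differed by -0.65 and -0.78 and Pmvk by -0.61 and -0.66. Msmo1, a sterol oxidase of the demethylation step, was the third highest of the 11 against mock IP by moderated t, at 4.80 and 4.16 in the V5 IP and 4.84 and 4.27 in the GFP IP, against 3.78 and 3.58 in mock IP and 4.56 and 4.40 in input. Msmo1 differed from mock IP by 0.81 in the V5 IP and 0.88 in the GFP IP (limma adjusted p = 0.0742 and 0.0528), which reached adjusted p of 0.016 and 0.00983 with slide as a block. Sc5d, the sterol desaturase ahead of Dhcr7, had probes that disagreed, at -0.09 and 1.90 in the V5 IP and 0.02 and 2.11 in the GFP IP against mock IP. Against input its brightest probe, used in the counts, had -0.48 in the V5 IP and -0.36 in the GFP IP and was not called. The dimmer Sc5d probe rose there by 1.17 and 1.395 (limma adjusted p over probes = 0.0281 and 0.0135).

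**Figure D4:**
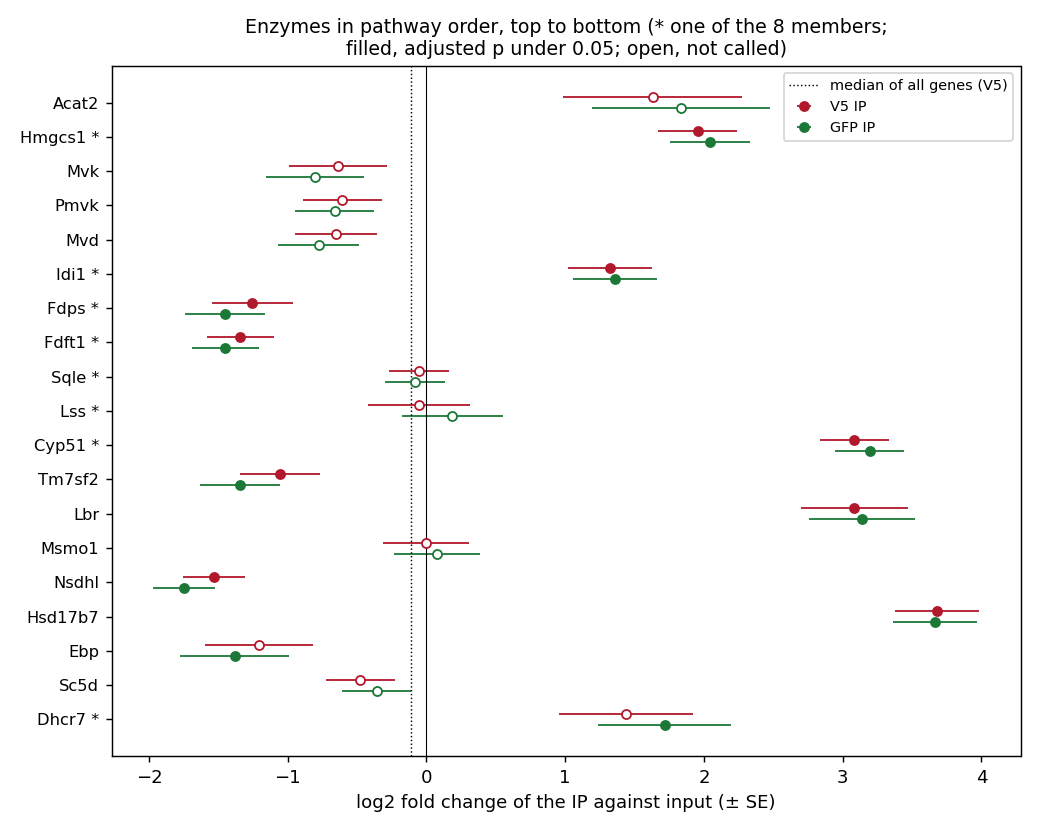
Log2 fold change (horizontal axis, ± SE) of V5 IP and GFP IP against input for 19 enzymes of the pathway, in pathway order from the top, with the 8 enzymes starred. Filled points passed limma at an adjusted p under 0.05. Filled points right of 0 (Hmgcs1, Idi1, Cyp51, Lbr, Hsd17b7, Dhcr7) lie at several steps of the pathway, as do filled points left of 0 (Fdps, Fdft1, Tm7sf2, Nsdhl, Ebp). Ebp rests on 1 input array, and the dotted line is the median of all genes in V5 IP.

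Of 7 genes of the SREBP control machinery, 4 rose and 0 fell against input in each IP, namely Srebf2, Insig1, Insig2 and Mbtps2. Of all genes, limma called 14.2% higher and 13.7% lower for V5, and 16% higher and 16.9% lower for GFP. Insig1, which holds SREBP in the endoplasmic reticulum, rose 4.95-fold in the V5 IP and 6.02-fold in the GFP IP against input (limma adjusted p = 0.00297 and 0.00205). Mbtps2, a protease that releases SREBP, rose 5.71-fold and 5.43-fold (limma adjusted p = 0.00307 and 0.00291). With normexp background correction the Mbtps2 log2 differences were 1.495 and 1.45, beside 2.51 and 2.44, and did not pass (limma adjusted p = 0.0686 and 0.0691). Srebf2, which encodes the SREBP best known for driving this pathway, rose by 1.54 and 1.66 on the log2 scale (limma adjusted p = 0.0216 and 0.014). Srebf2 differed from mock IP by 0.40 and 0.52 (limma adjusted p = 0.407 and 0.281), and mock IP differed from input by 1.14 (limma adjusted p = 0.0835, and 0.0109 with slide as a block). Against mock IP 2 of the 7 were higher, Insig1 and Mbtps2, and 2 lower, Scap and Srebf1. Among all genes 14.6% were called higher and 21.4% lower there for V5, and 16.3% and 26.5% for GFP. Scap, the SREBP escort protein, differed by -1.06 in the V5 IP and -1.13 in the GFP IP against mock IP (limma adjusted p = 0.0222 and 0.0138), and the V5 IP call was lost without any 1 of 5 arrays (either V5 IP, mock IP replicate 1, either input) and the GFP IP call without GFP IP replicate 1, with limma adjusted p over the alternatives up to 0.11 and 0.0791. Relative to the median gene those Scap differences from mock IP were -0.61 and -0.69. Scap did not pass against input, at -0.30 and -0.37 (limma adjusted p = 0.401 and 0.288). Mock IP differed from input by 0.75 for Scap (limma adjusted p = 0.0837, and 0.0333 with slide as a block). The median log2 difference of the 7 against input was 1.12 in the V5 IP and 1.19 in the GFP IP, beside -0.11 for all genes, and in mock IP it was 0.49, beside 0.20.

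Of 14 genes of sterol uptake, storage and efflux, 5 rose and 2 fell against input in each IP, where limma called 14.2% of all genes higher and 13.7% lower for V5, and 16% higher and 16.9% lower for GFP. Stard4, a sterol carrier, rose 4.60-fold in the V5 IP and 4.70-fold in the GFP IP against mock IP (limma adjusted p = 0.00717 and 0.00582), and Nr1h2, a sterol-sensing receptor, was 2-fold and 2.17-fold lower (limma adjusted p = 0.0214 and 0.0119). Nr1h2 did not pass against input, at 0.08 and -0.04 on the log2 scale (limma adjusted p = 0.828 and 0.912), while in mock IP it rose 2.11-fold against input (limma adjusted p = 0.0335). Of 11 tested genes of the isoprenoid branches, 2 rose and 3 fell against input in each IP, beside those same shares of all genes. Fntb, a farnesyltransferase subunit, fell by 0.90 in the V5 IP and by 0.96 in the GFP IP on the log2 scale against input (limma adjusted p = 0.0456 and 0.0325). Pggt1b, a subunit of a prenyl transferase, rose 3.94-fold and 3.65-fold against input (limma adjusted p = 0.0399 and 0.0424) and was well above background on 1 of 2 mock IP arrays. With normexp background correction the Pggt1b log2 difference against input was 0.48 in the V5 IP and 0.60 in the GFP IP, beside 1.98 and 1.87, and did not pass (limma adjusted p = 0.535 and 0.648). Of 10 fatty acid synthesis genes that SREBP also drives, 2 rose and 2 fell against input with the V5 antibody, whereas 3 rose and 1 fell with the GFP antibody, beside 14.2% higher and 13.7% lower of all genes for V5 and 16% and 16.9% for GFP. Scd2, a fatty acid desaturase, rose 2.78-fold and 3.19-fold against input (limma adjusted p = 0.00673 and 0.00375), while Fasn, fatty acid synthase, differed by -0.30 and -0.35 and did not pass (limma adjusted p = 0.436 and 0.345). Fasn differed from mock IP by -0.94 and -0.99 (limma adjusted p = 0.0327 and 0.023), or -0.50 and -0.55 relative to the median gene. Both Fasn calls against mock IP were lost with normexp, centring, the authors' deposited table and only the groups compared, and without some single arrays. Leaving out single arrays ended the calls of Nr1h2 against mock IP, of Fntb and Pggt1b against input, and of Scd2 in V5 IP against input. Both Fntb calls against input were also lost with normexp, centring, no filter on dim probes and the authors' deposited table. In V5 IP the Fntb call was lost with the mean of probes as well. The highest limma adjusted p over the alternatives was 0.104 and 0.0734 for Nr1h2, 0.198 and 0.187 for Fntb, and 0.0713 for Scd2. The median log2 difference against input of the isoprenoid genes was -0.37 in the V5 IP and -0.46 in the GFP IP, and that of the fatty acid genes was -0.039 and 0.067.

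Over the 8 arrays the genes whose signal followed the mean of the 8 enzymes most closely were Alg13, Rbmxl1, Zranb3, Cstf3 and Vbp1, with Pearson r of 0.9989, 0.9982, 0.9981, 0.9976 and 0.9974. This is a description over 8 arrays that share slides and IPs, and 9.54% of 19002 genes had r over 0.9. Alg13 read 4.58 and 4.09 in the V5 IP and 4.63 and 4.32 in the GFP IP, against 2.41 and 2.42 in mock IP and 3.26 and 3.23 in input. Its order of groups, with both IPs highest and mock IP lowest, is that of Hmgcs1, Idi1 and Cyp51. With the mean of its probes the signs of Alg13 and Zranb3 against input turned in both IPs.

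Dazl itself rose 6.19-fold in the V5 IP and 6.56-fold in the GFP IP against mock IP (limma adjusted p = 0.00494 and 0.00388). Against input Dazl rose 2.46-fold and 2.61-fold (limma adjusted p = 0.0417 and 0.0297), calls that were lost under 8 and 6 of 17 alternatives, among them without either input array, without either V5 IP array and without GFP IP replicate 2, with limma adjusted p up to 0.175 and 0.137. In mock IP the Dazl signal was 2.51-fold lower than in input (limma adjusted p = 0.0637, and 0.0121 with slide as a block). Of 10 germ cell markers 9 were matched on the array, and all 9 were well above background on all 8 arrays. Markers of other cells were also present in input, with 6 of 7 endoderm, 5 of 5 neural, 4 of 4 cardiac and muscle, 4 of 4 fibroblast and 2 of 3 blood markers well above background on both input arrays, and Ttr and Ptprc on none. In V5 IP against mock IP 4 germ cell markers were higher and 1 lower, and of the other cells' markers 1 neural was higher, and 1 neural, 2 cardiac and muscle and 1 fibroblast were lower. The GFP IP had the same counts, except that 3 cardiac and muscle markers were lower. Among all genes 14.6% were called higher and 21.4% lower against mock IP for V5, and 16.3% and 26.5% for GFP. The summed linear signal of the 9 germ cell markers, in units of the array's 75th percentile, was 97.8 to 153 in the V5 IP and 113 to 159 in the GFP IP, against 44.5 to 60 in mock IP and 54.6 to 60.4 in input. That of 20 markers of the other cells was 16.3 to 28.2 in the V5 IP and 16.6 to 25.5 in the GFP IP, against 18.6 to 31.5 in mock IP and 14 to 14.7 in input. The part of cell mixture in the enzymes' values was not tested, and in the bulk input RNA fewer cells of a type and less RNA per cell cannot be told apart. The marker sums of an IP are shares of the RNA on its arrays, not counts of cells.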

How the data were processed

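Native RNA-IP and input RNA were measured on 8 arrays, with 2 in each of 4 groups. Scans were quantified in Agilent Feature Extraction, version 9.1.3.1 per the file headers, and the deposited values are linear spot intensities whose processed form is background-subtracted. A second deposited table covers all samples, and its signal was normalized to the median per the file headers. Its deposited quality score was used only to match 44985 of 45018 entries to spots within a tolerance of 1e-05.

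Processed intensities were scaled to each array's 75th percentile and taken to log2, with outlier spots removed. Probes passed when well above background on each array of some group, and the brightest kept probe stood for its gene. Names came from the RefSeq table of GRCm38.p6 where an accession, symbol or synonym matched, for 22951, 6659 and 3096 probes, and 8468 kept the file's name. Comparisons used limma 3.58.1 (R 4.3.3) over all 8 arrays, two-sided, with Benjamini-Hochberg adjustment over all genes and a call at an adjusted p under 0.05. The script was tested on simulated data.

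Same-numbered replicates share a slide per the file headers, and their deviations from the group means correlated at 0.313 to 0.782 between groups, so slide was fitted as a block in an alternative. The members and lists were chosen with earlier results of these data known. Named were all members and, of the other enzymes, the 3 highest and 3 lowest moderated t against mock IP, 1 of each per further list, Dazl, and the 5 genes most like the members' mean. Genes outside this rule that complete a count are named after their values were seen. Some genes are not reported here and were left out of the lists. Probe sequences are not used here. All columns of per-sample values were assigned to a sample. Alternatives were quantile normalization, normexp with an offset of 50, centring on the median, no filter on dim probes, the mean of kept probes, a fit over all probes, the deposited table as log2 of the signal plus 0.1, only the groups compared, and leaving out each array.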

Additional observations from a re-analysis of the deposited data

How the results depend on the processing

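With 2 arrays a group, calls rest on a spread shared over all groups, and a lone array is assumed to vary like the others when its partner is left out. Cyp51 and Hmgcs1 kept their calls against input under every alternative run. No alternative read either gene from a dimmer probe alone. The dimmer Cyp51 probes were not called above input in either IP, and the dimmer Hmgcs1 probe only in the GFP IP. The cause of the changes below was not tested, except that leaving out an array leaves fewer samples. Where slide was fitted as a replicate block, the 8 enzymes had 2 lower calls in mock IP against input instead of 0, the other 11 had 2 higher and 2 lower there instead of 0 and 1, and 5 lower instead of 3 in GFP IP against input. Leaving out 1 array in turn gave, for the 8 enzymes, a median against mock IP of 1.03 to 1.45 in the V5 IP and of 1.17 to 1.55 in the GFP IP, the lowest without mock IP replicate 1. It gave 2 to 4 higher and 0 to 2 lower calls against input for V5, 2 to 4 and 0 to 2 for GFP, and 0 and 0 to 2 in mock IP. The 2 lower calls were both lost without input replicate 1 in each IP. For the other 11 it gave, against mock IP, 2 higher and 0 to 5 lower calls in the V5 IP and 2 to 3 and 1 to 5 in the GFP IP. Against input it gave 2 to 3 and 1 to 4 for V5, 2 to 3 and 1 to 5 for GFP, and 0 to 1 and 0 to 1 in mock IP.

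With normexp background correction, lower calls among the 8 against input were 0 for V5 and 1 for GFP, with 2 higher in GFP IP. Lower calls among the other 11 were then, against mock IP, 0 for V5 and 2 for GFP, and 1 in V5 IP, 0 in GFP IP and 0 in mock IP against input. With quantile normalization the other 11 had 5 lower calls in V5 IP, 5 in GFP IP and 2 in mock IP against input. Centring on the median of tested genes and the authors' deposited table each gave 3 lower calls for the 11 in V5 IP against mock IP. Without the filter on dim probes these were 2, with 1 in V5 IP and 0 in mock IP against input. With only the groups compared they were 2, with 5 in GFP IP and 0 in mock IP against input. With the mean of all kept probes, the median of the 8 against mock IP was 0.66 for V5 and 0.71 for GFP, with 2 higher calls in GFP IP and 1 lower call in mock IP against input. With Lss read from its second brightest probe, chosen after seeing the data, the medians were 0.66 and 0.79.

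Directions turned for Sqle against mock IP, at 0.083 in the V5 IP and 0.079 in the GFP IP with centring and 0.14 and 0.12 in the deposited table. Lss turned against mock IP, at -0.24 and -0.22 with the mean of its probes and -0.92 and -1.01 with its second brightest probe, which also gave -0.96 in GFP IP against input. With the mean of probes, Alg13 turned against input, at -0.16 in the V5 IP and -0.33 in the GFP IP, and Zranb3 at -0.60 in the V5 IP and -0.46 in the GFP IP. Over all genes, calls against mock IP numbered 2778 higher with 4076 lower for V5, and 3104 with 5051 for GFP. With centring these were 2848 and 1571, and 3359 and 2876. In mock IP against input 1263 and 776 became 818 and 850. With normexp the counts were 955 and 11 for V5, 1183 and 466 for GFP, and 8 and 0 in mock IP. With only the groups compared they were 2048 and 400, 2739 and 2920, and 23 and 20, and with slide as a block 3697 and 7323, 3976 and 7660, and 4079 and 2553. Without the filter on dim probes they were 1949 and 990, 2549 and 3179, and 72 and 69, of 27677 genes. Leaving out 1 array gave 1062 to 2750 higher and 54 to 5100 lower for V5, 1340 to 3181 and 145 to 5408 for GFP, and 0 to 2494 and 0 to 1404 in mock IP, with 0 and 0 there without mock IP replicate 1. Against input, calls over all genes were 2693 and 2614 for V5 and 3049 and 3212 for GFP. They became 1190 and 335, and 1256 and 474, with normexp, and ranged from 914 to 2826 and 297 to 3100, and from 1228 to 3222 and 600 to 3761, when 1 array was left out. The shares of all genes given as background move accordingly. Among single genes named, 208 values lost and 42 gained a call over the alternatives.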
